A study of Mus musculus with 46 samples.

Results

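The genes described here are the translation initiation factors and the aminoacyl-tRNA synthetases of the mouse embryo. They were chosen by name, as every gene of the expression table whose symbol begins with Eif and a digit from 1 to 6, except symbols ending in x or y, or is a single letter followed by ars or ars2. The rule gave 79 genes of the 7182 used: 45 with Eif names, called initiation factors here, and 34 synthetases. By name alone the 45 include genes with other roles, such as the kinases Eif2ak1 to Eif2ak4, Eif4enif1, Eif4a3 and Eif5a. Of the synthetases, 17 act in the cytosol and 17 in mitochondria, although Gars and Kars each make enzyme for both places. RNA was measured by SMART-seq2, a full-length protocol for very small inputs, in wild-type (WT) embryos and in embryos with a knockout (KO) of Rbbp5. RBBP5 is a subunit that the enzyme complexes methylating lysine 4 of histone H3 share. The KO embryos were made by injecting zygotes: wild-type zygotes with Cas9 mRNA and a guide RNA, or Rbbp5 flox/flox zygotes with Cre mRNA. The labels do not tie a library to either method, and injected embryos can be mosaic.

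The inner cell mass (ICM) of blastocysts, taken singly at embryonic day (E) 3.5 by immunosurgery, gave 7 WT and 7 KO libraries. The epiblast dissected by hand from single E5.5 embryos gave 3 WT and 3 KO libraries. Of the single E4.5 cells, 7 WT and 3 KO were epiblast, 1 WT and 2 KO were primitive endoderm, and no embryo is named for any cell. Values are FPKM, fragments per kilobase of transcript and of mapped fragments, so they can be compared between genes. Sequencing depth is unknown. The targeted gene was not analysed here, and genotypes are taken from the labels.

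Initiation is the step at which a ribosome is placed on the start codon. The factor eIF2 brings the initiator tRNA to the small ribosomal subunit, and its exchange factor eIF2B recharges it with GTP. The eIF4 factors bind and unwind the capped end of the mRNA. The large complex eIF3 holds the small subunit and joins it to the cap-bound factors, eIF1 and eIF1A guard the choice of start codon, and eIF5 and eIF5B close the step by GTP hydrolysis and subunit joining. The aminoacyl-tRNA synthetases load each amino acid onto its tRNA. The kinases that phosphorylate eIF2 lower general initiation under stress, and the transcription factor ATF4, whose mRNA is then translated better, induces many cytosolic synthetase genes.

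Libraries differed in gene detection and in markers. WT ICM libraries had 5110 to 5718 genes at 1 FPKM or more, and KO ICM libraries had 3628 to 5136. KO ICM 1, 4 and 6 had the fewest, 3628, 3642 and 3883. In WT ICM 1 the 9 measured markers of trophectoderm and extraembryonic ectoderm summed to 835.7 FPKM. Over the WT ICM they ran from 43.6 through a median of 77.2 to that value, and over the KO ICM from 7.91 through 35.4 to 57.0. The 8 measured markers of ICM and naive epiblast summed to 191.5 to 492.3 FPKM in WT ICM and to 94.5 to 311.2 in KO ICM, and the 11 of primitive endoderm to 61.0 to 245.4 and 23.2 to 75.8. The part of any of these in the ICM values below was not tested. Several markers of the KO libraries labelled E5.5 epiblast went against their label. Pou5f1, a pluripotency gene of the epiblast, was at 4.57, 5.07 and 19.9 FPKM there and at 103 to 190.4 in the WT libraries. Elf5, a defining gene of extraembryonic ectoderm, was at 31.6, 30.1 and 33.4 FPKM in KO and at 0.0451 or less in WT. The same 9 markers summed to 1154 to 2433 FPKM in these KO libraries and to 76.2 to 120.6 in WT. The 8 of ICM and naive epiblast summed to 48.5 to 134.2 in KO and 393.0 to 438.2 in WT. The 6 measured markers of formative epiblast summed to 291.6 to 692.8 in KO and 1806 to 2168 in WT. Not every epiblast marker was lower: Esrrb was at 1.35 to 5.60 in KO and 0.0739 or less in WT. Klf4 was at 0.280 to 1.29 and 0.209 or less, and Sox2 and Lef1 in KO 3 lay within the WT range. Cdx2, a gene of the early trophectoderm, was at 0 in the WT libraries and at 0, 3.21 and 0.828 in the KO libraries. In E4.5 cells the 11 markers of primitive endoderm summed to 3.35 to 44.99 FPKM in WT and 1.88 to 65.4 in KO epiblast cells, and to 3251 in the WT and 652.6 and 975.0 in the KO primitive endoderm cells. Single markers did not all follow the labels. Gata4 and Sox17 were at 0.345 or less in the epiblast cells and at 23.0 or more in the primitive endoderm cells, but Sox7 was at 22.01 and 20.4 in WT epiblast 1 and 2 and at 0.126 in KO primitive endoderm 1, and Pdgfra was at 0 in KO primitive endoderm 2.

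In the WT ICM nearly all of these genes were expressed, and their levels spanned a wide range. Of the 79 genes, 71 were at 1 FPKM or more in all 7 WT ICM libraries, and 54 were in all 7 KO ICM libraries. The initiation factors together took 2.37% ± 0.39 of the summed FPKM of the WT ICM (SD, n = 7), and the synthetases took 0.271% ± 0.083. The most abundant member was Eif5a, which makes the hypusine-bearing factor that helps the ribosome through difficult peptide bonds, at 931.9 ± 316.5 FPKM. Eif1 followed at 665.0 ± 197.9, then the eIF3 subunit Eif3k at 592.6 ± 68.3 and the eIF2 beta subunit Eif2s2 at 543.4 ± 65.8. The next of these levels lies within 1 SD of the one before it. Subunits of 1 complex differed in mRNA level, since within eIF3 the mean per-length level ran from 20.8 FPKM for Eif3b to 592.6 for Eif3k. Among cytosolic synthetases Rars, for arginine, was highest at 105.0 FPKM and Vars, for valine, lowest at 6.2. The kinases Eif2ak2, Eif2ak3 and Eif2ak4 averaged 0.3, 1.3 and 0.6 FPKM, and the heme-regulated Eif2ak1 averaged 6.8.

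The summed synthetase level was lower in every KO ICM than in any WT ICM. It was 536.5 to 1111 FPKM over the 7 WT ICM and 230.5 to 508.1 over the 7 KO ICM, with means of 792.1 ± 219.5 and 329.2 ± 106.9 (SD, n = 7 each). Without KO ICM 1, 4 and 6, the KO range was 271.6 to 508.1. The KO libraries with most genes at 1 FPKM or more, KO ICM 5 and 7 (5136 and 5022), were at 508.1 and 421.7. The WT libraries with fewest, WT ICM 3 and 6 (5110 and 5219), were at 555.1 and 806.8. The part of gene detection in these sums was not tested. The initiation factors summed to 5781 to 9164 FPKM in WT and 4555 to 6536 in KO, and these ranges overlap. In bulk samples such as these, fewer cells of a type and less RNA of a gene per cell cannot be told apart.

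**Figure D1:**
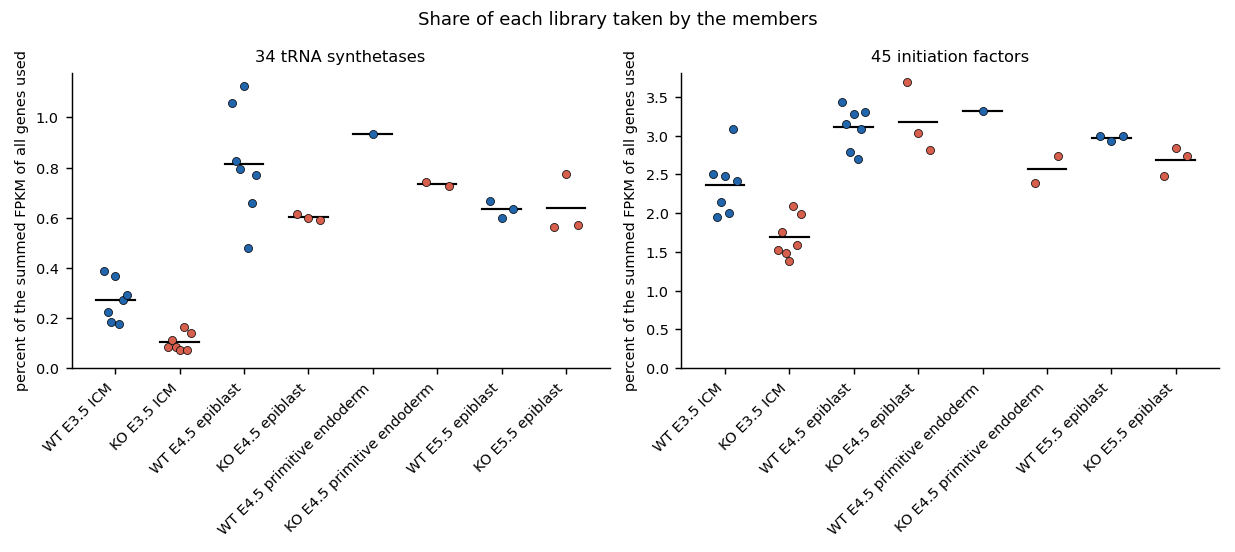
Share of each library's summed FPKM taken by the 34 synthetases (left) and the 45 initiation factors (right), with 1 point per library or cell, WT in blue and KO in red, and the group mean as a line. In the E3.5 ICM the synthetase share was 0.176% to 0.386% in WT and 0.0703% to 0.163% in KO, while the E5.5 groups, with means of 0.633% and 0.637%, overlap.

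Gene by gene, 73 of the 79 members passed the filter of a mean of 1 FPKM in the ICM. The other 6, Aars2, Eif2ak2, Eif2ak4, Eif4g3, Eif5a2 and Vars2, were too low to test. At an adjusted p under 0.05 in limma, 37 of the 73 were lower in KO (50.7%) and 1 was higher (1.37%). Over all 5443 genes tested, 24.9% were lower and 3.44% were higher. The median change over all genes was -0.65 on the log2 scale, so part of each value below is shared with most genes of these libraries. The members' median was -0.92. For 34 of the 38 called members, all 7 KO libraries lay on the same side of the WT mean, below it. The 38 were picked by the test on these same libraries, so this count adds no support of its own. The share over all genes is not given here.

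The cytosolic synthetases held 13 of the 37 lower members. All 17 were tested, 13 fell, none rose, and their median was -1.32 on the log2 scale, which is -0.67 relative to all genes. Gars, for glycine, lies at chr6:55038001-55079504 (GRCm38, the mm10 build). It was at 40.6 FPKM in the lowest WT ICM, 73.4 in the median and 91.2 in the highest, against 8.09, 12.5 and 31.1 in KO. The groups did not overlap, and the change was -2.08 (SE 0.32, adjusted p 0.00184). Without KO ICM 1, 4 and 6, the change of Gars was -1.91 (adjusted p 0.0183).

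Wars, for tryptophan, had the largest fall among the synthetases. It lies at chr12:108860030-108894175 and ran from 12.5 through a median of 31.6 to 48.3 FPKM in WT and from 0.999 through 5.71 to 12.5 in KO. KO 5, the highest KO library, met the lowest WT library, and the other 6 KO libraries lay below all WT libraries. The change was -2.37 (SE 0.44, adjusted p 0.00251). Mars, for methionine, ran from 26.4 through 48.6 to 73.4 FPKM in WT and from 3.67 through 11.3 to 26.5 in KO, with a change of -1.97 (SE 0.38). Again only KO 5 touched the WT range.

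Hars, for histidine, fell by 1.89 (SE 0.41), with medians of 38.8 FPKM in WT and 7.78 in KO. Kars, for lysine, fell by 1.84 (SE 0.43), from a median of 75.1 FPKM to 20.03, and its KO values were uneven, from 4.70 in KO 6 to 57.7 in KO 5. Both groups overlap for these genes. Iars, Vars, Qars, Dars, Cars, Sars, Yars and Rars also fell, by 1.12 to 1.58. The 4 cytosolic genes that did not pass the test were Tars (-1.07, adjusted p 0.0524), Aars (-0.69), Lars (-0.69) and Nars (-0.65). All 4 belong to the 12 synthetases known as ATF4 targets, of which 8 fell. The 5 cytosolic synthetases outside that list, Dars, Hars, Kars, Qars and Rars, all fell. Whether the lists differ was not tested.

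Several cytosolic synthetases sit together in the multisynthetase complex, a scaffolded assembly. Of its 7 measured members under the naming rule, 6 fell, with a median of -1.39. The phenylalanine enzyme, whose subunits Farsa and Farsb lie outside the rule, was also lower: Farsa fell from 27.0 ± 11.9 FPKM to 4.44 ± 4.60 (adjusted p 0.003), and Farsb fell by 1.61 on the log2 scale. Of the 7 other tRNA-charging genes listed, these were the 2 called, and Eef1e1, a scaffold of the complex, was at 0.16 with an adjusted p of 0.575.

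Because many cytosolic synthetases moved together, promoters were searched for TGATGNAA, the core of the C/EBP-ATF response element to which ATF4 binds. It was sought on both strands of the 250 bases upstream of the start in RefSeq promoter windows. Of the 79 members 62 had a window, and 3 of them held the motif (4.84%), as did 3.91% of 27025 genes with windows. All 3 were cytosolic synthetases, of 10 with a window, and none was among 38 initiation factors or 14 mitochondrial synthetases with one. The stretches are shown because they are the matches among the synthetases, 5′ to 3′ along the gene's strand, with the motif in capitals. It is read on the opposite strand in each.
Gars: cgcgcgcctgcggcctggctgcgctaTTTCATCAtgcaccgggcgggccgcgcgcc
Aars: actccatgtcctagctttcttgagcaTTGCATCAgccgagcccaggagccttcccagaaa
Tars: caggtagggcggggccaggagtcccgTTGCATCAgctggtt
The motif of Gars covers positions 30 to 23 before its start (chr6:55037945-55038000, plus strand), that of Aars 112 to 105 (chr8:111033704-111033763, plus strand) and that of Tars 15 to 8 (chr15:11399659-11399699, minus strand). The window of Aars belongs to a start at position 111033842, which lies inside the gene's RefSeq span of chr8:111027778-111055569, whose first base is further upstream. A match describes these letters only. In the KO ICM Gars fell and Aars and Tars did not pass the test.

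Of 15 mitochondrial synthetases tested, 8 fell and none rose, with a median of -1.03. Tars2, for mitochondrial threonine, ran from 4.20 through 15.7 to 27.4 FPKM in WT and from 0.135 through 4.01 to 8.62 in KO, a change of -1.78 (SE 0.52, adjusted p 0.019). Its groups overlap, and the call was lost with either scaling alternative and without KO ICM 1, 4 and 6. Pars2, for proline, was low in both groups, with medians of 2.47 and 0.452 FPKM, but the groups did not overlap, and it was under 1 FPKM in all 7 KO libraries (change -1.40, SE 0.31, adjusted p 0.00508). It passed the filter through its WT level alone, the 1 tested member of which this is true, so its call supports nothing further, and its change ran from -3.02 to -0.51 over the alternatives. Wars2, for mitochondrial tryptophan, lay between 5.04 and 8.23 FPKM in WT and between 0.454 and 4.75 in KO, again without overlap (change -1.03, SE 0.35). Lars2, for leucine, had nearly the same medians in both, 25.6 and 21.8 FPKM (change -0.09, adjusted p 0.804).

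**Figure D2:**
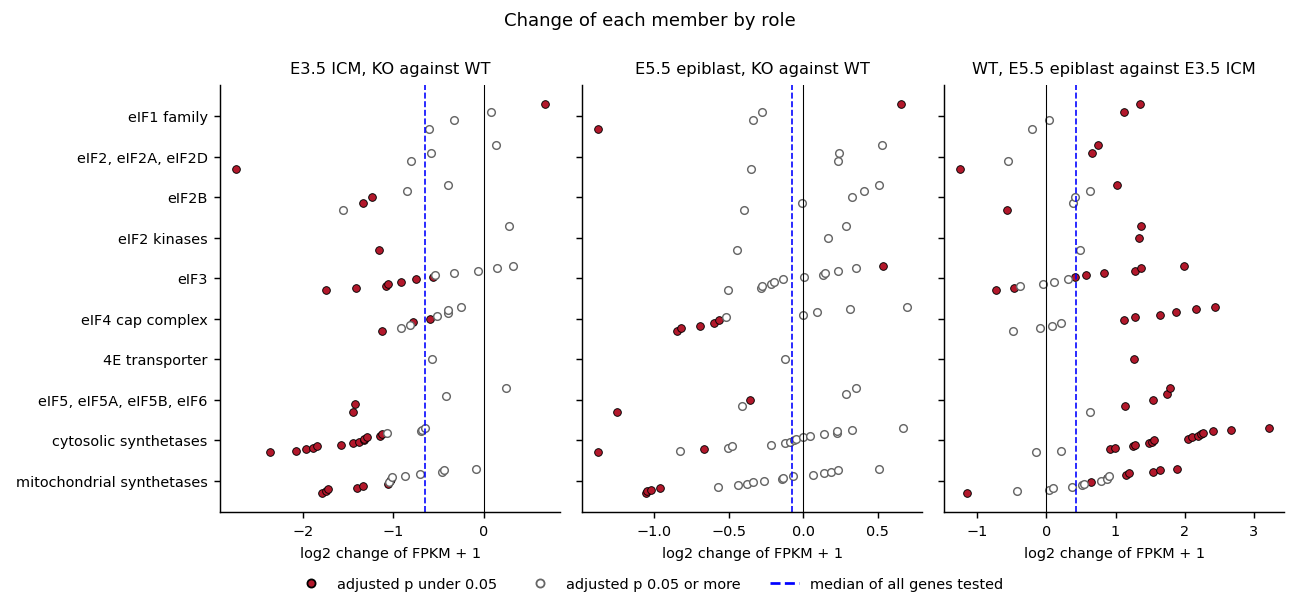
Log2 change of FPKM + 1 for each tested member, by role, in 3 comparisons, with filled points for an adjusted p under 0.05, a solid line at 0 and a dashed line at the median of all genes tested. In the E3.5 ICM 13 of 17 cytosolic synthetases are filled and below 0, at E5.5 2 are, and in WT development 15 are filled and above 0.

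Of 41 initiation factors tested in the ICM, 16 fell and 1 rose, and their median of -0.60 lay 0.06 above that of all genes. Under median ratio scaling, which sets each library to the same typical gene, the median of the initiation factors was -0.05, and 5 fell and 4 rose.

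The largest change of all members was that of Eif2d, a factor that can deliver tRNA to the ribosome without eIF2 (chr1:131153172-131187659). WT ICM ran from 57.0 through 127.3 to 172.7 FPKM and KO ICM from 2.14 through 14.2 to 83.3. KO 5 lay within the WT range and the other 6 KO libraries lay below it. The change was -2.75 (SE 0.58, adjusted p 0.00439), and without KO ICM 1, 4 and 6 it was -1.54 (adjusted p 0.0363). The subunits of eIF2 itself that were measured, Eif2s1 and Eif2s2, did not pass the test (-0.58 and 0.13). Of the 5 eIF2B subunits Eif2b4 fell by 1.33 and Eif2b3 by 1.24. Eif2b2 had a lower fitted value (-1.56) but varied more and did not pass (adjusted p 0.0754). Of the kinases tested, Eif2ak1 fell by 1.16, a call lost in 9 of 24 alternatives, among them both scalings, the replicate block and that without KO ICM 1, 4 and 6, with values up to -0.40. Eif2ak3, the kinase of the endoplasmic reticulum stress response, did not pass (0.28).

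Within eIF3, 7 of 12 subunits fell and none rose. Eif3d, the subunit that can itself bind the mRNA cap, was between 59.3 and 155.4 FPKM in WT, with a median of 129.0, and between 17.3 and 55.8 in KO, with a median of 25.7. The groups did not overlap and the change was -1.75 (SE 0.32, adjusted p 0.00248). Eif3l fell by 1.42, Eif3b by 1.08, Eif3g by 1.06, Eif3a by 0.92, Eif3h by 0.74 and Eif3m by 0.56. The subunits Eif3k (0.14), Eif3f (0.32), Eif3c (-0.07), Eif3e (-0.54) and Eif3i (-0.33) did not pass. Subunits of the complex thus had fitted values from -1.75 to 0.32 in the same libraries. Under median ratio scaling the direction of this family was mixed, with Eif3d and Eif3l lower and Eif3k and Eif3f higher.

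Of the cap-binding and unwinding factors 3 of 9 fell: Eif4h, which aids the eIF4A helicase (-1.12), Eif4a2, a paralog of the helicase (-0.78), and Eif4a3, the helicase of the exon junction complex (-0.60). The call of Eif4h was lost, with the same sign, in 8 of 25 alternatives. Among them were both scalings, the replicate block and that without KO ICM 1, 4 and 6. It was also lost, with the sign reversed, when detected genes entered as a covariate, where its value was 0.07. The cap-binding protein gene Eif4e (-0.39) and the main helicase gene Eif4a1 (-0.40) did not pass.

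Of the 4 genes of eIF5, eIF5B, eIF5A and eIF6 tested, 2 fell. Eif5a ran from 609.1 through 971.6 to 1388 FPKM in WT and from 207.2 through 262.5 to 562.8 in KO, without overlap (change -1.44, SE 0.26, adjusted p 0.00248). Eif6, which keeps the large ribosomal subunit from joining too early, ran from 66.8 through 103.5 to 151.2 in WT and from 12.8 through 36.3 to 70.5 in KO, where KO 5 alone entered the WT range (change -1.43, SE 0.32). Eif5 (-0.41) and Eif5b (0.24) did not pass.

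Eif1 was the only member called higher in KO. It ran from 374.2 through 642.5 to 1017 FPKM in WT and from 656.7 through 1042 to 1357 in KO, and 6 of 7 KO libraries exceeded the WT mean (change 0.68, SE 0.21, adjusted p 0.024). The groups overlap. The call was lost in 6 of 25 alternatives, among them that without KO ICM 1, 4 and 6 (adjusted p over the alternatives from 0.00799 to 0.978).

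**Figure D3:**
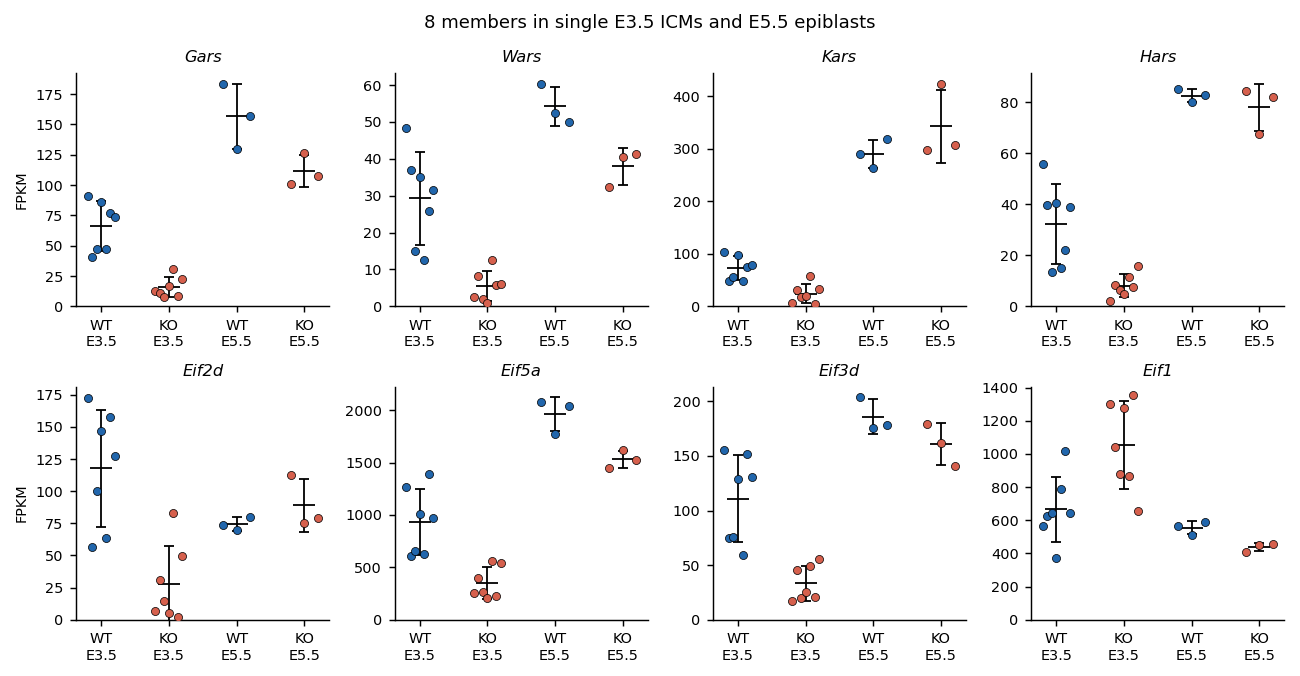
FPKM of 8 members in each single E3.5 ICM (7 WT, 7 KO) and E5.5 epiblast (3 WT, 3 KO), with the mean and SD as bars. In the ICM, KO points of Gars, Eif5a and Eif3d lie below all WT points, most KO points of Eif1 lie above the WT mean, and at E5.5 Kars and Hars overlap between genotypes.

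Over the tested members, 5 had every KO ICM library below every WT ICM library: Eif3d, Eif5a, Gars, Pars2 and Wars2, which is 6.85%, beside 3.33% of all genes tested. Pars2 passed the filter through its WT level alone, as given above, so its place in this count supports nothing further. Alternatives were followed for 17 of the called members, mainly those with the smallest adjusted p, a choice that favours calls that hold. Of the 17, 9 lost the call under 1 alternative only, the covariate described next: Eif2d, Eif3d, Eif5a, Eif6, Gars, Hars, Kars, Mars and Wars. The number of called members depended on the libraries. Without KO ICM 1, 4 and 6 it was 18, all lower, beside 5.91% of all genes, and 17 of them were among the 38. Of these 18, 9 were cytosolic synthetases. Without WT ICM 1, which had the highest sum of trophectoderm markers, 24 members fell and none rose. In that fit 17.6% of all genes were called in either direction. WT ICM 3 and 4, with the trophectoderm gene Gata3 at 48.5 and 26.7 FPKM, stayed in it. With quantile normalization 2 rose and 13 fell, beside 5.95% and 6.54% of all genes, whose median was -0.05. With median ratio scaling 4 rose and 12 fell, beside 7.61% and 8.49% of all genes, whose median was -0.25. With the number of detected genes of each library as a covariate, none of the members and none of all genes passed in limma, and 9 members had an unadjusted p under 0.05. The adjusted p of Gars was 0.654 in that fit. A low number of detected genes and the KO genotype go together in these libraries.

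**Figure D4:**
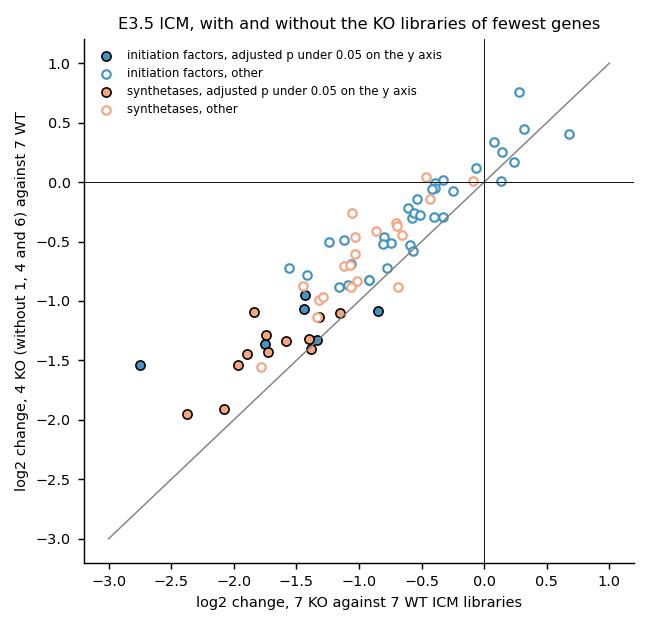
Log2 change of each tested member in the ICM with all 14 libraries (x axis) and without KO 1, 4 and 6 (y axis), initiation factors in blue and synthetases in orange, filled where the adjusted p on the y axis is under 0.05. Most points below 0 lie above the line of equal values, Eif2d moved from -2.75 to -1.54, and Gars moved from -2.08 to -1.91.

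Other genes of protein synthesis were counted in the ICM from lists of the pathway. These counts stand beside 24.9% of all 5443 genes tested that fell and 3.44% that rose. Whether any list differs from all genes was not tested. Of 10 tested elongation genes 6 fell, among them Eef2, the translocase (-1.72, adjusted p 0.00741), and Eef1g (-1.02), and 1 rose, Eef1b2, an exchange factor of eEF1A (0.87, adjusted p 0.00232). Of 9 genes listed under termination and recycling 3 fell: Hbs1l (-1.63), Mtrf1 (-1.65) and Abce1 (-1.12). That list also holds the mitochondrial initiation factors Mtif2 and Mtif3, which did not pass. Of 10 genes of the mTORC1 pathway 2 fell, Tsc1 and Rraga. Of 9 tested genes of the amino acid response 5 fell, with Phgdh, an enzyme of serine synthesis, at -3.09 and Psat1, the next enzyme of that route, at -1.33. Atf4 mRNA did not pass (-0.05, adjusted p 0.888).

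In single E4.5 epiblast cells, where each genotype counts as 1 sample and no test was made, most members overlapped between genotypes. Every KO cell lay below every WT cell for 4 of 79 members (5.06%), where 3.29% of all genes did, and above for 1 (1.27%), where 2.35% did. The gene above was Eif4a2, which was at 734.9, 397.8 and 495.3 FPKM in the 3 KO cells and between 8.34 and 110.8 in the 7 WT cells. Its paralog Eif4a1 was at 1860, 1349 and 1824 in KO and 777.5 to 1359 in WT, and these overlap. Reads of the paralogs may be split between them in ways that depend on the counting, which was not known.

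The 4 members below were Eif5a, Eif6, Eif4a3 and Ears2. Eif5a was at 774.2, 890.6 and 1262 FPKM in KO and 1332 to 1986 in WT. Eif6 was at 115.0, 89.96 and 121.3 in KO and 139.9 to 218.7 in WT. Both genes also fell in the KO ICM, as did Eif4a3, where 37 of 73 tested members fell (50.7%). Eif4a2, higher in the KO cells here, fell in the KO ICM too. Eif4a3 was at 79.5, 90.2 and 124.2 in KO and 127.8 to 326.9 in WT. Ears2, for mitochondrial glutamate, was listed at 0 in all 3 KO cells and at 5.52 to 28.6 in WT. Gars was at 126, 91.3 and 73.1 in KO and 126 to 331 in WT, and the highest KO and lowest WT cell lie at the same level.

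The KO epiblast cells had 3026 to 3628 genes at 1 FPKM or more, and the WT cells had 3878 to 4682. The trophectoderm markers summed to 137.1 to 334.1 FPKM in the KO cells and 49.0 to 128.2 in WT. The part of either in these values was not tested. The summed synthetase level was 1303 to 1650 FPKM in KO and 1265 to 2426 in WT, and these overlap. In primitive endoderm the sum was 3509 FPKM in the 1 WT cell and 3112 and 3157 in the 2 KO cells, above all epiblast cells. The summed FPKM of all genes was also higher there, and as a share of it the synthetases took 0.935%, 0.744% and 0.727%, within the 0.478% to 1.13% of the WT epiblast cells. Eif5a was at 3717 in that WT cell and at 2677 and 3868 in the KO cells.

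**Figure D5:**
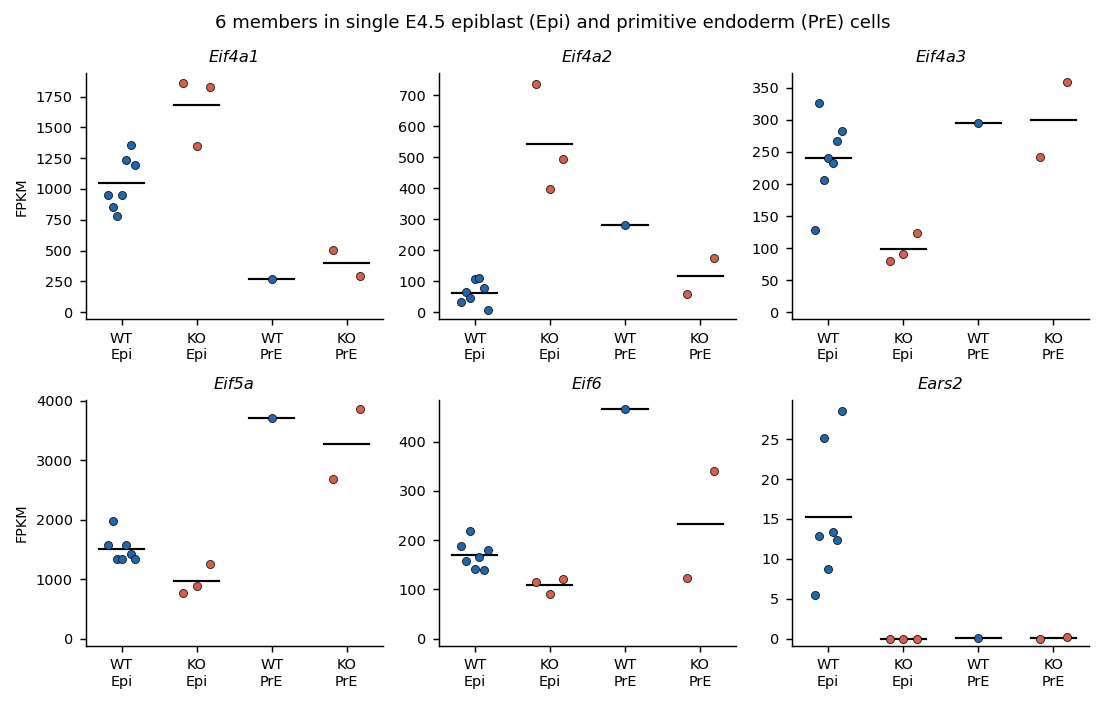
FPKM of 6 members in single E4.5 cells, 1 point per cell, for 7 WT and 3 KO epiblast (Epi) and 1 WT and 2 KO primitive endoderm (PrE) cells, with group means as lines. Eif4a2 was higher in each KO than in each WT epiblast cell, Eif4a3, Eif5a, Eif6 and Ears2 were lower, and Eif4a1 overlaps.

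In the libraries labelled E5.5 epiblast the summed synthetase levels overlapped between genotypes. They were 1712 to 2063 FPKM in WT and 1760 to 2265 in KO. Of 78 members tested, 14 were lower in KO (17.9%) and 2 higher (2.56%), while over all 5956 genes 18.5% were lower and 15.6% higher. The share of lower members is thus near that of all genes. All E5.5 values stand beside the markers above: in the 3 KO libraries the summed markers of extraembryonic ectoderm were higher and those of epiblast lower. Genotype and the kind of tissue in the library therefore cannot be told apart.

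The factors of the eIF4 group held 5 of the 14. Eif4h was at 180.3, 145.5 and 143.4 FPKM in WT and 80.9, 78.0 and 100.1 in KO (change -0.85, SE 0.18, adjusted p 0.00488). Eif4g2, a scaffold used in cap-independent initiation, was at 329.6, 320.2 and 320.3 in WT and 191.6, 180.7 and 230.4 in KO (change -0.69, SE 0.15). Eif4a1, the main helicase, was at 425, 401 and 463 in WT and 276, 312 and 283 in KO (change -0.56, SE 0.14). Eif4g1, the scaffold of the cap complex, fell by 0.82 and Eif4a2 by 0.60. The cap-binding gene Eif4e (0.09) did not pass. The median of the 10 was -0.54, which is -0.47 relative to all genes, and 4 of them passed with median ratio scaling.

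Of the 17 cytosolic synthetases 2 fell at E5.5 and none rose. Vars was at 39.6, 32.0 and 21.7 FPKM in WT and 12.8, 11.8 and 8.84 in KO (change -1.38, SE 0.26, adjusted p 0.00315). Mars was at 105, 80.5 and 97.3 in WT and 46.8, 75.1 and 57.8 in KO (change -0.66, SE 0.21). Gars (-0.48, adjusted p 0.0635) and Wars (-0.51, adjusted p 0.0607) did not pass. Kars was at 289.6, 263.8 and 318.2 in WT and 298.4, 423.4 and 308.0 in KO. KO 2 was the highest library for Kars, Nars and Tars.

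Of the mitochondrial enzymes, 4 of 17 fell: Tars2 (-0.96), Yars2 (-1.02), Fars2 (-1.05) and Aars2 (-1.06). Tars2 was at 44.6, 38.0 and 36.9 FPKM in WT and 24.7, 15.1 and 21.0 in KO. Eif5a fell by 0.36, a call lost in 11 of 15 alternatives, among them both scalings, the replicate block and a pseudocount of 5, with values from -0.43 to -0.02. Its rarer paralog Eif5a2 fell by 1.25, and Eif1b, a paralog of Eif1, by 1.38. The 2 that rose were Eif1a (0.66, from 87.4, 90.8 and 126 FPKM to 181, 154 and 143) and Eif3c (0.54, from 123, 118 and 123 to 188, 159 and 184). No gene of the eIF2, eIF2B or kinase groups passed limma's test at E5.5, and 1, 2 and 0 of them had an unadjusted p under 0.05.

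The calls at E5.5 depended on single libraries. Leaving out 1 library left between 5 and 17 called members, with 6, 5 and 8 without WT 1, 2 and 3. In a fit of all 4 embryo groups, which pools the wider spread of the ICM, Eif5a2 alone passed. It is near 0 in the ICM, with means of 0.69 FPKM in WT and 0.09 in KO. Its call was lost in 4 of 14 alternatives, those without WT 1, 2 or 3 or KO 1. With median ratio scaling 6 rose and 11 fell, beside 17.9% and 18% of all genes. The calls of Eif4g2, Eif4h, Tars2 and Vars were lost in that joint fit alone. The KO comparisons of the ICM and of E5.5 share no library, and 6 members fell in both: Eif4a2, Eif4h, Eif5a, Mars, Tars2 and Vars, which is 16.2% of the ICM list and 42.9% of the E5.5 list. Among the 73 members tested in both, 50.7% fell in the ICM, and so did 6 of the 12 that fell at E5.5 (50%). Over the 5143 genes tested in both these shares were 25.1% and 29.4%, so the overlap of the members is near what their ICM share alone gives. The call of Eif5a at E5.5 was lost in most alternatives, as given above.

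Among the other genes of the pathway at E5.5, the amino acid response list had 3 genes that rose and 1 that fell of 10. Over all 5956 genes tested 15.6% rose and 18.5% fell, and whether any list differs from this was not tested. Asns, asparagine synthetase, was between 26.4 and 84.0 FPKM in WT and between 259.5 and 624.6 in KO (change 2.73, SE 0.47, adjusted p 0.00392). Ddit3 rose by 1.94 and Psat1 by 1.22, and Shmt2, of mitochondrial serine metabolism, fell by 1.42. Of the synthetases known as ATF4 targets 2 of 12 fell and none rose. In the elongation, termination and mTORC1 lists 1 gene each was called, Eef2k and Mtrf1l higher and Rraga lower.

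The difference between the KO effects at E5.5 and E3.5 was itself tested over all 20 embryo libraries. It passed for 6 of 78 members, 5 higher (6.41%, beside 10.6% of all 5917 genes) and 1 lower (1.28%, beside 3.38%). The 5 were Eif2d (2.98, SE 0.97, adjusted p 0.0435), Eif2b4 (1.84), Gars (1.60), Eif3d (1.53) and Pars2 (1.47). All 5 fell in the KO ICM, where Pars2 averaged 0.398 FPKM and passed the filter through its WT level alone. At E5.5 the KO mean was below the WT mean for Gars and Eif3d and above it for Eif2d, Eif2b4 and Pars2. Eif2b4 did not pass there (change 0.51, adjusted p 0.0542). Each of these calls was lost in 13 or more of its 28 or 29 alternatives. Eif1 (-1.01, adjusted p 0.0494) went the other way. Eif2d was at 73.8, 69.5 and 80.1 FPKM in WT and 112, 75.5 and 78.9 in KO at E5.5. For Kars (2.07, adjusted p 0.05), Wars (1.87) and Hars (1.81) the difference did not pass. The median difference over all genes was 0.56. With median ratio scaling 4 members passed, all lower, beside 4.51% of all genes, and with quantile normalization 3 passed higher and 2 lower, beside 6.88% and 5.68%. Leaving out any 1 library gave between 0 and 16 calls.

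In WT embryos most cytosolic synthetases rose between the E3.5 ICM and the E5.5 epiblast. Stage, tissue and dissection change together in this comparison, and it shares its 7 WT ICM libraries with the ICM knockout comparison. Of 78 members tested, 46 were higher at E5.5 (59%, beside 37.3% of all 6022 genes) and 5 lower (6.41%, beside 18.9%). Of the 46, Aars2, Eif2ak4, Eif4g3 and Eif5a2 averaged under 1 FPKM in the ICM and passed the filter through E5.5 alone, so their calls support nothing further. The median of the members was 0.91 and that of all genes 0.43 on the log2 scale. With either scaling alternative, under which the median of all genes was 0.09 or 0.10, the members' median was 0.77 or 0.55.

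Of the 17 cytosolic synthetases 15 rose and none fell, with a median of 1.56. Lars, for leucine, rose most, from 1.67 to 12.8 FPKM in the 7 ICM to 67.8, 51.8 and 75.6 in the 3 epiblasts (change 3.22, SE 0.42, adjusted p 2.96e-05). Aars rose by 2.67, Tars by 2.40, Iars by 2.27 and Gars by 1.28. Kars, at 48.0 to 103.9 FPKM in the ICM, was at 289.6, 263.8 and 318.2 at E5.5 (change 2.04, SE 0.25). None of these groups overlap, but the share of all genes without overlap was not counted in this comparison. All 12 synthetases known as ATF4 targets rose, and so did Dars, Hars and Kars outside that list. Atf4 mRNA fell by 0.65 (adjusted p 0.0488). ATF4 protein was not measured, and any part of ATF4 in these values was not tested. Qars and Rars did not pass, and Rars was the most abundant synthetase of the ICM. At E5.5 Kars was the most abundant synthetase, Gars (156.8 FPKM), Tars (146.9) and Nars (144.1) followed, and these 3 lie within each other's spread.

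Of 17 mitochondrial synthetases 7 rose. Aars2, which is among the members that passed the filter through E5.5 alone, was at 1.89, and from 0.80 to 3.23 over the alternatives. Wars2 fell by 1.15, from 5.04 to 8.23 FPKM in the ICM to 2.03, 2.02 and 2.09. With quantile normalization 2 rose and with median ratio scaling 3 did, and 1 fell in each. Wars, which loads the same amino acid in the cytosol, rose by 0.99.

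Initiation factors of the cap complex also rose, 6 of 10. Eif4b, a cofactor of the helicase, rose by 2.44, Eif4h by 2.16 and Eif4g2 by 1.88, from 73.7 to 120.3 FPKM in the ICM to 329.6, 320.2 and 320.3. Eif5b (1.78), Eif6 (1.55) and Eif5a (1.14) rose, and Eif5 (0.63) did not pass. Of the eIF3 subunits 6 rose, Eif3a by 1.98 and Eif3b by 1.37 among them, and Eif3i (-0.73) and Eif3h (-0.46) fell. With median ratio scaling 3 eIF3 subunits rose and 2 fell. Eif2s2 fell by 1.25 (SE 0.14, adjusted p 7.35e-06), from 473.5 to 643.7 FPKM to 226, 222 and 232, while the alpha subunit gene Eif2s1 rose by 0.75. The kinase gene Eif2ak1 rose by 1.33. That of Eif2ak4, low in the ICM as given above, was 1.37, and from 0.51 to 2.57 over the alternatives.

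The values of development and of the KO ICM, which rest on the same WT ICM libraries, stand side by side as follows. Gars was 1.28 in development and -2.08 in the KO ICM, Kars 2.04 and -1.84, Eif5a 1.14 and -1.44, and Eif6 1.55 and -1.43. Lars was 3.22 and -0.69 (not passing in the ICM), Eif4g2 1.88 and -0.25 (not passing), and Wars2 fell in both, -1.15 and -1.03. No relation between the 2 was computed.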

How the data were processed

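RNA libraries were made by SMART-seq2 with Tn5 fragmentation, per the labels' protocols. The deposited unit is FPKM, made by the authors in 1 table of 7186 lines. Trim Galore 0.6.4, STAR 2.7.3 and the mm10 build are among what the submitters' processing notes name. The step that assigned reads to genes is not given there. Of the lines, 4 with 2 repeated names were left out. Repeated lines differed only in single-cell columns, which may come from a separate run, so single cells were not tested against embryo libraries. No sequencing depth can be read from FPKM.

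Embryo libraries were compared on log2(FPKM + 1) with limma 3.58.1 under R 4.3.3, using robust empirical Bayes with a trend, in 4 comparisons. A gene was tested where its mean over the libraries compared reached 1 FPKM. P-values were adjusted by Benjamini-Hochberg over all genes tested and called under 0.05. The scale understates changes of low genes. Labels name a single embryo per library. The settings changed 1 at a time were the pseudocount (0.1 or 5), the filter (none or 5 FPKM), the scaling (by quantiles or by median ratios), the robust step, a replicate block, a joint fit of the embryo groups, a covariate of detected genes, and the libraries used.

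The members and lists were chosen with earlier results of these data known. Named members were up to 12 called each way with the smallest adjusted p in a comparison and, per role, the most abundant and the most changed each way. Single-cell members were named where genotypes did not overlap. Of the other pathway genes up to 3 per direction were named. Further members were named after their values were seen, to break down a count. Positions, names and promoters came from RefSeq (GRCm38.p6). All 79 members matched, 1 by a synonym. A list of poly(A)-binding genes was not analysed here.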

Additional observations from a re-analysis of the deposited data

Results flagged for a closer look

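The difference of the KO effects between the libraries labelled E5.5 epiblast and the E3.5 ICM passed limma's test at an adjusted p under 0.05 for 6 members: Eif2d at 2.98 on the log2 scale (adjusted p 0.0435), Eif2b4 at 1.84 (0.0469), Gars at 1.60 (0.0367), Eif3d at 1.53 (0.0475), Pars2 at 1.47 (0.0492) and Eif1 at -1.01 (0.0494). Of 78 members 6.41% were higher and 1.28% lower, beside 10.6% and 3.38% of all 5917 genes tested, so members passed less often than genes in general. Each of these calls was lost in 13 or more of its 28 or 29 alternatives. Pars2 averaged 0.398 FPKM in the KO ICM, so its value rests on a level near 0 there. The KO libraries labelled E5.5 epiblast carried extraembryonic ectoderm markers, whose part in these differences was not tested.

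In 68 groups of values, 4 had 1 library or cell far from the others, and chance flags about 1 in 20 groups. The summed level of the initiation factors was 9164 FPKM in WT ICM 6, with the next library at 7219. Eif2b1 was at 211.6 FPKM in the same library, with the next at 131.3. Eif2ak3 was at 5.16 FPKM in WT ICM 1, with the next at 1.46. Eif5a was at 1986 FPKM in WT E4.5 epiblast cell 2, with the next at 1580.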

How the results depend on the processing

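For the KO ICM, 38 members were called, and the count was 15 with quantile normalization, 16 with median ratio scaling, 18 without KO ICM 1, 4 and 6, and 0 with detected genes as a covariate. With 1 library left out it ran from 24 (without WT ICM 1) to 41. For E5.5, 16 were called, 1 in a fit of the 4 groups, and 5 to 17 with 1 library left out. For the difference of effects, 6 were called, 1 with a pseudocount of 0.1, 10 with a pseudocount of 5, 2 without a filter, 2 without KO ICM 1, 4 and 6, and 0 to 16 with 1 library left out. It was 0 without WT ICM 1, 4 or 7, WT E5.5 2 or 3, or KO E5.5 1 or 2, and 16 and 15 without KO ICM 5 and 7. For WT development the count of 51 stayed between 39 and 54 under all alternatives. For E4.5 epiblast cells 5 members had no overlap, and 5 to 12 with 1 cell left out, 8 without WT 5. Eif4h in the ICM, -1.12, was 0.0706 with detected genes as a covariate. The cause was not tested for any of these. The labels' replicate numbers did not pair the samples: 2 of 7 same-numbered ICM pairs and 1 of 3 E5.5 pairs had a correlation of deviations over 0.1. With a replicate block the counts were 28 in the ICM, 15 at E5.5, 1 for the difference and 46 in development, and 1 of 7 ICM libraries and 2 of 3 at E5.5 correlated best with its own number. FPKM gives no depth, so values near 0 carry an unknown counting error.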
